A study of Rattus norvegicus with 3 samples.

Results

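The isoforms of myosin and actin that distinguish the fetal from the adult heart muscle cell were followed in single nuclei of the rat heart. The set holds 8 of the 22250 genes in the files, and they were chosen by name: the myosin heavy chains Myh6, Myh7 and Myh7b, the sarcomeric actins Acta1 and Actc1, and the myosin light chains Myl4, Myl7 and Myl9. All 8 were found. Nuclei came from the heart apex, with parts of the septum and of both ventricles, of rats aged 12 months, and were sorted and sequenced with a 10x Genomics kit, named as 3′ in the labels and methods and as 5′ elsewhere in the study, so the captured transcript end is uncertain. The WT rat carries an intact Dmd gene. The BMD rat, a model of Becker muscular dystrophy in the Sprague Dawley strain, carries an in-frame deletion within Dmd, which leaves a shortened dystrophin. The DMD rat, a model of Duchenne muscular dystrophy, carries a deletion in Dmd after which the full protein is missing. Each genotype was 1 library, the sources do not state how many animals it held, and so genotype, animal and library cannot be told apart and no test between genotypes was possible. The intervals given are at 95% and cover counting error only.

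The sarcomere of the heart slides actin along myosin. The adult rodent ventricle makes mostly the fast heavy chain from Myh6, whereas the fetal ventricle makes mostly the slow heavy chain from Myh7. Cardiac actin from Actc1 is the main adult form, and skeletal actin from Acta1 is abundant in the fetal heart and falls after birth. The light chains Myl4 and Myl7 are atrial in the adult and are also made by the fetal ventricle, while Myl9 belongs to smooth muscle. A return towards the fetal forms under load or injury is a textbook feature of the failing heart.

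Counts are of unique molecular identifiers (UMIs), each standing for 1 captured transcript, summed over all nuclei of a class and given as CPM, the count scaled to 1000000 UMIs of that class. Totals ranged from 19215994 to 21609238 UMIs per library. Of 24664 nuclei, 4613 were cardiomyocyte-like, with 9 of the 9 markers found in the files raised: 2027 in WT, against 1525 in BMD and 1061 for DMD. Their median depth was 2761, 3769 and 3242 UMIs. The targeted gene Dmd stood at 16478, 20567 and 19520 CPM in WT, BMD and DMD, so its nuclear count did not mark the genotypes. From 12 to 20 barcodes were shared by each pair of libraries. The ventricular genes Myl2, Irx4 and Hey2 summed to between 883 and 996 CPM, whereas 6 atrial genes, among them Sln and Bmp10, summed to between 3.89 and 5.72 CPM.

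Of the promoters given by RefSeq on the GRCr8 build, 7 of the 8 members had an entry, Myl9 being the exception. The Acta1 and Actc1 sequences are shown because these genes encode nearly the same protein and both were higher in BMD and DMD. Each is the 250 bases before the annotated start, read 5′ to 3′ on the minus strand, at chr19:68784195-68784444 for Acta1 and chr3:121271828-121272077 for Actc1. Capitals mark the serum response factor site called the CArG box, the MCAT motif CATTCC and the TATA motif TATAAA, searched on both strands, which did not overlap.
Acta1: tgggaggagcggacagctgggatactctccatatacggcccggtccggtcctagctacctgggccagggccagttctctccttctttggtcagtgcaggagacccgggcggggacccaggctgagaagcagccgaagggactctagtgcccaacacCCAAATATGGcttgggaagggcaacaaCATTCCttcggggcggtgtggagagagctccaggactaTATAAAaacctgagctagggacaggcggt
Actc1: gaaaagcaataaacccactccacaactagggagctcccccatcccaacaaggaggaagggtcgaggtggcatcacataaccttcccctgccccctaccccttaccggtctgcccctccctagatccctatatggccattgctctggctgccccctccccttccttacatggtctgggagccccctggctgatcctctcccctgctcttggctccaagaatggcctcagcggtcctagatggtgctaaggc
In the Acta1 window the CArG box ended 84 bases before the start, MCAT 61 bases before it and TATA 23 bases before it. No match to these motifs lay in the Actc1 window. The CArG box was searched only in its strict form, CC and GG around A or T bases. Sites that depart from it by a base were not counted, such as ccctatatgg in the Actc1 window and ccatatacgg in that of Acta1. The motif GATAA and the MEF2 site were searched as well and had no match in the 7 windows, against 23.5% and 2.96% of all windows. A CArG box of this form was present in 501 of the 33469 rat promoter windows of this length, MCAT in 12.1% and TATA in 12.9%. Among the 7 members with an entry, the CArG box was found in Acta1 alone, MCAT in Acta1 and Myh6, and TATA in Acta1 and Myl4. Only the windows of Acta1 and Actc1 lay outside the annotated interval of their gene on this build. Those of Myh6, Myh7, Myh7b, Myl4 and Myl7 lay inside it, so their motif results do not describe sequence upstream of the whole gene.

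The heavy chain genes also carry microRNAs within their intervals, and these are shown because the balance of their host genes differed between libraries. Myh6 and Myh7 lie next to each other on chromosome 15 with 2861 bases between them. The strands below are the 3′ arms of miR-208a in Myh6 and miR-208b in Myh7 and the 5′ arm of miR-499 in Myh7b, from RefSeq on GRCr8, with the seed (bases 2 to 8) in capitals. They lie at chr15:32395568-32395585 and chr15:32421648-32421665 on the minus strand and at chr3:164570616-164570636 on the plus strand.
rno-miR-208a-3p: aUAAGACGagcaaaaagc
rno-miR-208b-3p: aUAAGACGaacaaaaggu
rno-miR-499-5p: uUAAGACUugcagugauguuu
The miR-208 strands share their seed, and that of miR-499 is spelled differently. The libraries did not measure mature microRNAs, so only the host transcripts have values here.

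Myh6 (ENSRNOG00000025757), the fast adult heavy chain, was at 2532 CPM for WT, 1394 CPM for BMD and 2471 CPM for DMD. BMD was the low library, while the DMD level lay close to that of WT. Relative to WT, its log2 ratio came to -0.86 for BMD (interval -0.90 to -0.82) and -0.04 for DMD (-0.07 to 0.00). The DMD level of Myh6 lay below WT in nuclei under 2000 UMIs, at 2842 against 3272 CPM. In nuclei of 5000 UMIs or more it lay above WT, at 2288 against 1895 CPM. The study reported Myh6 as strongly downregulated when cardiomyocytes of the diseased states, BMD and DMD, were compared with WT. The BMD level here was lower than WT, but the DMD log2 ratio of -0.04 was no strong decrease. It departs from that report where the report is read for DMD alone, and BMD and DMD pooled were not compared here. The cause of this difference was not tested. The study also measured Myh6 by RT-qPCR in ventricle RNA of several rats per genotype. It states that qPCR bore out the nuclear changes, a reduction of Myh6 among them, and those values were not used here. Myh7 (ENSRNOG00000016983), the slow fetal heavy chain, was at 1655 CPM in the WT library, 2508 CPM in that of BMD and 2253 CPM in that of DMD. Both dystrophin-mutant libraries were higher than WT, by a log2 ratio of 0.60 in the case of BMD (0.56 to 0.63) and 0.44 for DMD (0.40 to 0.49). Myh7b (ENSRNOG00000018997), a heavy chain gene with low protein output in adult heart, was at 496, 594 and 686 CPM, and its log2 ratios were 0.26 (0.19 to 0.33) and 0.47 (0.39 to 0.54). Thus Myh7b was the heavy chain with its highest level in DMD rather than BMD. Both ratios are taken over the same WT library.

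The actins differed more from WT than the heavy chains did. Acta1 (ENSRNOG00000017786), the skeletal actin, was at 32.5 CPM in WT, against 235.6 CPM in BMD and 237.8 CPM for DMD. BMD exceeded WT by a log2 ratio of 2.86 (2.65 to 3.07) and DMD by one of 2.87 (2.65 to 3.096), and between DMD and BMD it was 0.01 (-0.11 to 0.13). Actc1 (ENSRNOG00000008536), the cardiac actin, was at 571, 1424 and 1339 CPM, with log2 ratios of 1.32 (1.26 to 1.38) and 1.23 (1.17 to 1.29). WT was the low library for both actins, and the BMD and DMD levels of each lay close together. Myh6 and Myh7, like Acta1 and Actc1, are closely similar in coding sequence, so reads that map to both members of a pair could not be assigned by standard counting.

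Light chains were sparse. Myl4 (ENSRNOG00000050675), the atrial essential light chain, had 22 UMIs in WT, 78 with BMD and 89 with DMD, or 3.47, 11.7 and 23.1 CPM, and log2 ratios of 1.76 (1.06 to 2.51) and 2.73 (2.05 to 3.48). Myl7 (ENSRNOG00000014409), the atrial regulatory light chain, had 8, 52 and 24 UMIs, or 1.26, 7.83 and 6.22 CPM, and log2 ratios of 2.63 (1.55 to 3.92) and 2.30 (1.10 to 3.67). The DMD level of Myl4 was above that of BMD, with a log2 ratio between them of 0.97 (0.52 to 1.43). That interval treats UMIs as independent, although they were concentrated in few nuclei. Nuclei with at least 2 UMIs of Myl4 and Myl7 together numbered 21 in BMD and 16 in DMD. They held 55 of the 78 BMD and 74 of the 89 DMD UMIs of Myl4, so the interval is too narrow. Myl9 (ENSRNOG00000020246), the smooth muscle regulatory light chain, had 2 UMIs in the WT library, 13 UMIs in that of BMD and 6 UMIs in that of DMD. Set against WT, BMD had a ratio of 6.20 (1.40 to 56.6) and DMD one of 4.93 (0.882 to 49.9), so the DMD interval included a ratio of 1. In smooth muscle-like nuclei, Myl9 had 5, 7 and 6 UMIs from 45, 102 and 79 nuclei, which was 104, 57.1 and 62.4 CPM.

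**Figure D1:**
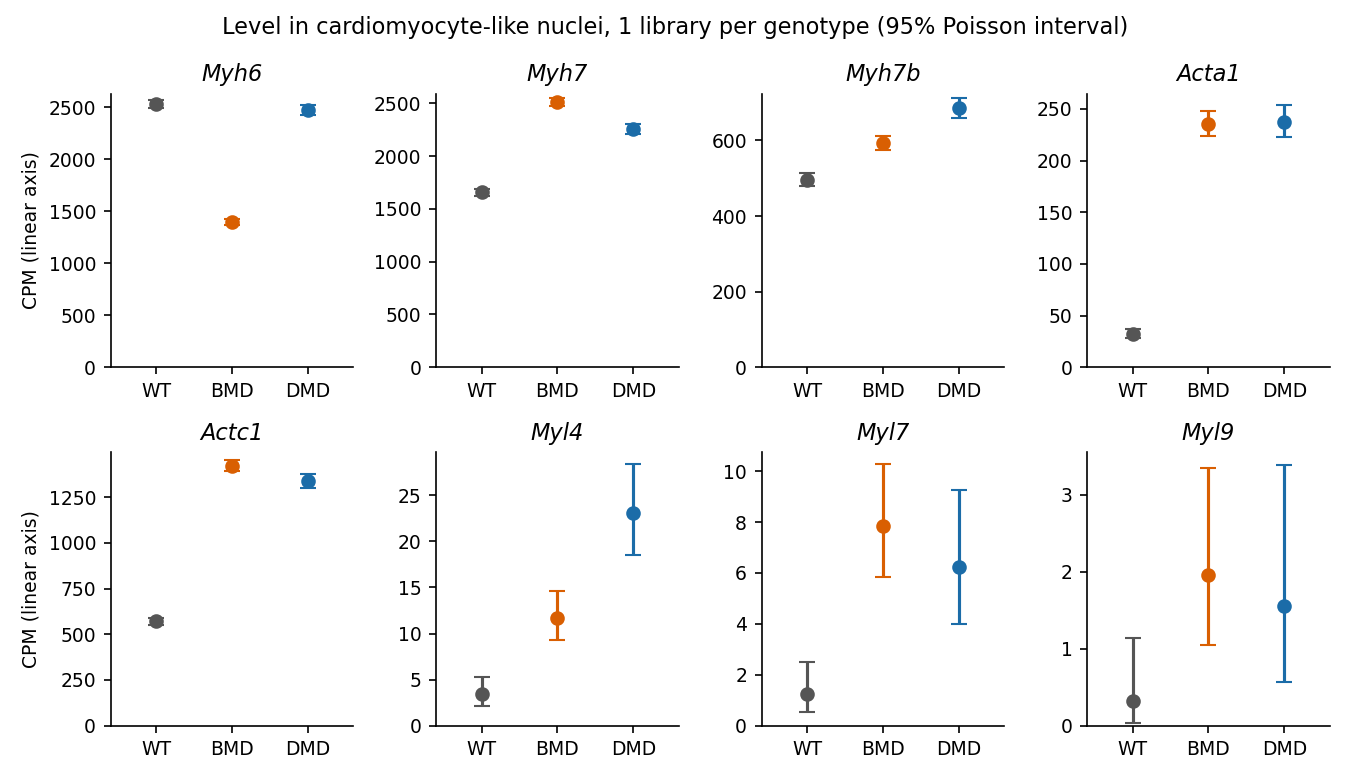
Level of each member in cardiomyocyte-like nuclei in CPM on a linear axis from 0, with 1 point per library (WT, BMD, DMD) and bars for the 95% Poisson interval. Myh6 is lowest in BMD at 1394 CPM, Acta1 and Actc1 are lowest in WT, and the wide bars of Myl4, Myl7 and Myl9 reflect at most 89 UMIs.

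A gene was counted as past the fold when its CPM differed by at least 2-fold, among 10116 genes with at least 50 UMIs in these nuclei, which kept 7 members and left out Myl9. Acta1, Actc1, Myl4 and Myl7, 4 of the 7, were at least 2-fold higher in BMD than in WT, where 3.44% of all tested genes were and 6.01% were past the fold in either direction. The same 4 were at least 2-fold higher in DMD, where 4.84% of genes were, and 7.86% in either direction. None was at least 2-fold lower in either comparison, against 2.57% of genes in BMD and 3.02% in DMD. Between DMD and BMD no member differed by 2-fold, against 2.91% of genes higher, 1.56% lower and 4.47% in either direction. The median log2 ratio of all tested genes was -0.05 for BMD and -0.03 for DMD. Acta1 had the 22nd highest ratio in BMD and the 17th highest in DMD, and Myl4 the 21st highest in DMD. Myl7 reached the minimum of 50 UMIs only through BMD, where it was high. Myl4, with 22 UMIs in WT, reached it only through BMD and DMD, where it was high. The places of Myl4 and Myl7 in these counts are therefore no support for them. With a minimum of 200 UMIs, or with every nucleus thinned to 500 UMIs, Myl4 and Myl7 had too few UMIs to be counted, which left 2 members past the fold in each comparison. Their thinned log2 ratios were 1.58 and 2.52 for Myl4 and 2.41 and 3.26 for Myl7.

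The balance of an isoform pair within a library does not depend on how libraries are scaled. Myh7 made up 39.5% of Myh6 and Myh7 UMIs in WT (interval 38.9 to 40.1), against 64.3% in BMD (63.7 to 64.9) and 47.7% for DMD (47.0 to 48.4). BMD stood apart from both others, and DMD lay between them, nearer to WT. On the log2 scale the ratio of Myh7 to Myh6 was higher than in WT by 1.46 in BMD (1.41 to 1.51) and by 0.48 in DMD (0.42 to 0.53). The share of Myh7 rose with the depth of the nuclei in each library. Under 2000 UMIs, WT stood at 34.4% (33.0 to 35.9), DMD at 46.0% (43.6 to 48.4) and BMD at 56.6%. At 5000 UMIs or more, WT stood at 47.1% (45.9 to 48.4), DMD at 49.1% (47.9 to 50.3) and BMD at 67.3%. The WT and DMD intervals thus overlapped among the deepest nuclei, while BMD remained apart. The order was different for actin. Acta1 made up 5.39% of Acta1 and Actc1 UMIs in WT, 14.2% with BMD and 15.1% with DMD, and the DMD and BMD ratios differed by 0.10 on the log2 scale (-0.03 to 0.23). Thus the heavy chain pair separated BMD from DMD, whereas for the actin pair the interval of the difference between them included 0. All these intervals treat UMIs as independent. Heavy chain shares and Acta1 counts varied more between nuclei than that allows, so the intervals are too narrow.

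For the light chains the adult ventricular partner served as reference. Myl4 made up 0.502% of Myl4 and Myl3 UMIs in the WT library, 1.02% in that of BMD and 2.005% in that of DMD. Myl7 made up 0.157% of Myl7 and Myl2 UMIs in WT, against 0.890% in BMD and 0.675% for DMD. The atrial forms were thus a small part of either pair in every library. Myh7b made up 10.6% of the UMIs of the 3 heavy chains in WT, 13.2% in BMD and 12.7% in DMD.

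A mean balance can come from all nuclei or from a few, so the share of Myh7 was read in each nucleus with at least 10 UMIs of Myh6 and Myh7. This left 1076 WT, 1006 BMD and 685 DMD nuclei. The median nucleus had 32.4% Myh7 in WT, 72.7% with BMD and 44.4% with DMD. Of the BMD nuclei, 397, or 39.5% (36.4 to 42.6), were over 90% Myh7. The corresponding number was 94 in WT, or 8.74% (7.12 to 10.6), and 98 in DMD, or 14.3% (11.8 to 17.2). Nuclei at 25% to 75% Myh7 made up 48.5% in the WT library, 40.4% in that of BMD and 58.8% in that of DMD. The spread over nuclei, an SD of 28.0, 30.9 and 27.9 percentage points, was wider than the 11.9, 11.2 and 11.6 points that sampling of UMIs around 1 common share would give.

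**Figure D2:**
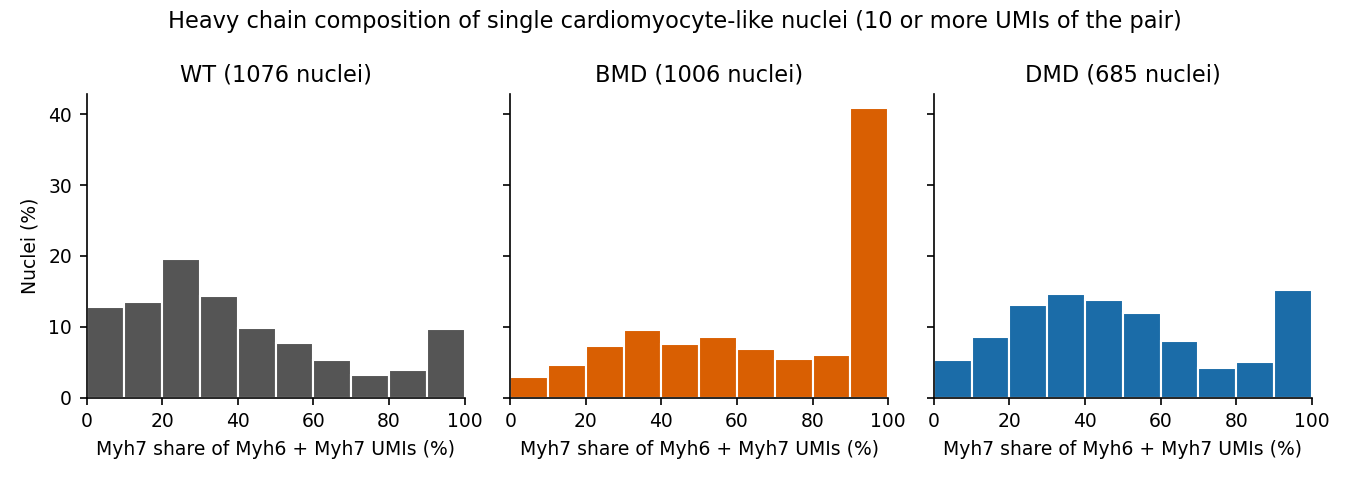
Share of Myh7 among the Myh6 and Myh7 UMIs of single cardiomyocyte-like nuclei (x axis, %, bins of 10 points) and the percent of nuclei in each bin (y axis), for 1076 WT, 1006 BMD and 685 DMD nuclei. The bin from 90% holds 9.76% of nuclei from WT, 40.9% from BMD and 15.2% from DMD, and the remaining nuclei spread over the whole range in all 3 libraries.

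Nuclei without any Myh6 UMI were 20.7% of the class in WT, 42.6% with BMD and 23.2% with DMD. Without thinning, nuclei that did have Myh6 carried 9.98 UMIs of it on average in WT, 10.6 in BMD and 11.7 in DMD. With each nucleus thinned to 500 UMIs these means were 2.45, 2.40 and 2.41. Among nuclei with at least 5000 UMIs the share without Myh6 was 12.1% in WT (8.50 to 16.6), against 42.5% in BMD (37.9 to 47.2) and 16.9% for DMD (12.2 to 22.5). In WT and DMD this share fell with depth, from 24.2% and 33.3% among nuclei under 2000 UMIs, whereas in BMD it was 44.5% there. After thinning each nucleus to 500 UMIs, Myh6 was seen in 56.4% of nuclei from WT, 33.8% from BMD and 53.8% from DMD. In endothelial-like nuclei, which should lack it, the thinned share was 5.92%, 3.93% and 5.75%, with median depths before thinning of 792, 1084 and 936 UMIs.

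Myh7 was seen in 51.8% of nuclei from WT, 68.3% from BMD and 66.0% from DMD when thinned to 500 UMIs, and in 89.6%, 95.3% and 94.8% without thinning. The thinned share in endothelial-like nuclei was 4.16%, 7.52% and 7.28%. At the thinned depth, nuclei with Myh7 and no Myh6 made up 21.9%, 44.5% and 29.3%, and those with both 29.9%, 23.8% and 36.7%. In BMD, Myh6 was seen in 34.9% of thinned nuclei with Myh7 (32.0 to 37.9) and in 31.6% of those without (27.5 to 36.0), and these intervals overlap.

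Acta1 followed another pattern. Without thinning it was seen in 5.57% of nuclei from WT, 35.7% from BMD and 35.8% from DMD, and after thinning in 1.13%, 8.33% and 9.99%. The thinned share in endothelial-like nuclei was 0.520%, 1.46% and 1.64%. The share of nuclei without Acta1 fell with depth in every library, and at 5000 UMIs or more it was 87.1% for WT, 48.4% for BMD and 49.3% for DMD. The richest nucleus held 9 Acta1 UMIs in the WT library, 50 UMIs in that of BMD and 14 UMIs in that of DMD. Actc1 was seen in 22.9%, 45.7% and 50.1% of thinned nuclei, against 1.95%, 6.32% and 5.91% of endothelial-like nuclei. Its richest nucleus held 33 UMIs in WT, against 238 UMIs in BMD and 60 UMIs for DMD.

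**Figure D3:**
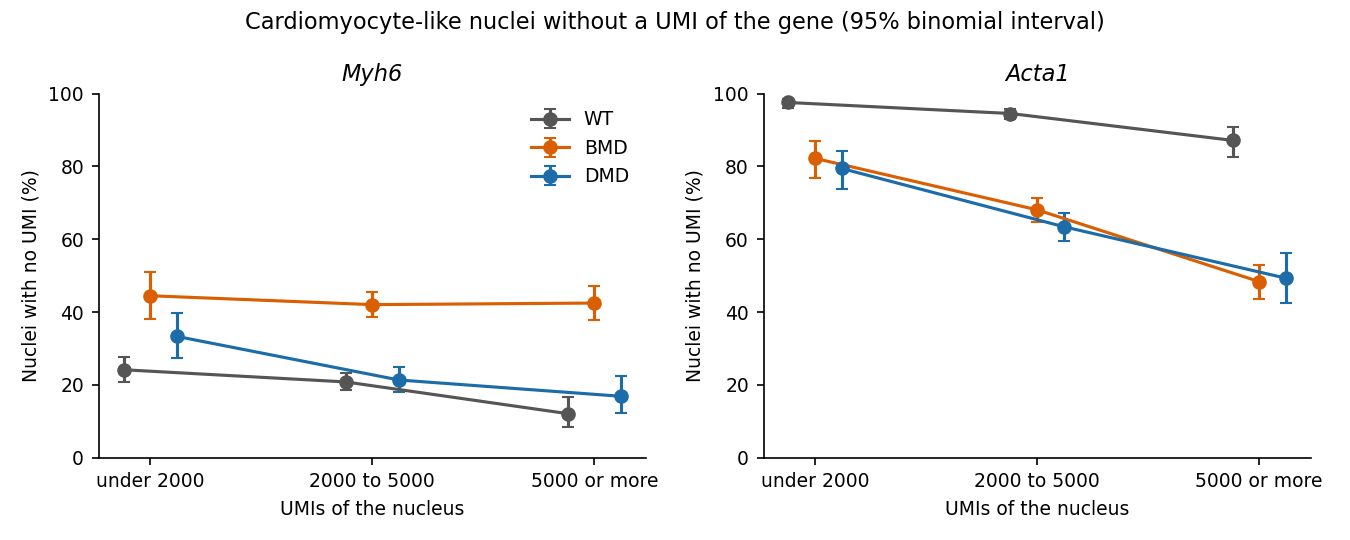
Percent of cardiomyocyte-like nuclei with no UMI of Myh6 (left) or Acta1 (right) in 3 depth bands, with bars for the 95% binomial interval and lines joining the bands of a library. For Myh6 the BMD share stays between 42.0% and 44.5% in all bands while WT and DMD fall with depth, and for Acta1 BMD and DMD run together below WT.

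Nuclei of one heavy chain type could then be compared across libraries. Among nuclei over 90% Myh7, Acta1 was at 65.4 CPM for WT (44.4 to 92.8), 245.5 CPM for BMD (225.8 to 266.5) and 254.3 CPM for DMD (213.4 to 300.8). Among nuclei under 25% Myh7, Acta1 was at 22.1, 219.8 and 154.8 CPM. BMD and DMD therefore exceeded WT at both ends of the heavy chain range. Actc1 was also lowest in WT at both ends, at 618, 1518 and 1457 CPM over 90% Myh7 and at 462, 1105 and 1298 CPM under 25%. Nppa, the atrial natriuretic peptide, was at 409.2, 1199 and 1086 CPM over 90% Myh7 and at 33.9, 371.2 and 764.1 CPM under 25%. The Nppa levels at the 2 ends of the range lay further apart in WT than in DMD. These groups of nuclei were formed from the measured counts, and the nuclei of a library are not replicates.

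Nppa divided the heavy chain balance within each library. Nuclei with a Nppa UMI had a Myh7 share of 57.5% in the WT library, 70.8% in that of BMD and 50.8% in that of DMD, against 36.7%, 56.0% and 43.8% in nuclei without one. Acta1 was at 90.01 and 19.1 CPM in WT nuclei with and without Nppa, at 274.9 and 170.2 CPM in BMD and at 253.7 and 213.8 CPM in DMD. Nuclei with Nppa were deeper, with a median of 3680 UMIs in WT against 2639 in those without. In nuclei that had neither Nppa nor Nppb, the brain natriuretic peptide gene, Acta1 was at 19.8, 173.6 and 210.4 CPM, so it stood higher in BMD and DMD there too.

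The cardiomyocyte-like nuclei were clustered again, which gave 6 sub-clusters named here by their leading gene. The 8 members, Nppa, Nppb and other genes named by the study were left out of this clustering. The sub-clusters led by Dhrs7c and Col24a1 were mostly WT nuclei, and that led by Fos mostly BMD and DMD nuclei. With 1 library each, a sub-cluster mostly of one library may reflect that library and not a cell state, and sub-cluster sizes were not compared. The sub-cluster led by Cdh11, with 44 nuclei, held 52.3% doublets by the Scrublet caller. The sub-cluster led by Hs3st2, an enzyme that modifies heparan sulfate, held 106 WT, 388 BMD and 93 DMD nuclei and the one led by Gdf15, a stress-induced cytokine gene, held 23, 45 and 22.

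In the Hs3st2 sub-cluster Myh6 was low in every library, at 601 CPM in WT, against 410 CPM in BMD and 817 CPM for DMD. Its Myh7 share was 73.8% (70.8 to 76.6), 84.4% (83.4 to 85.4) and 67.9% (65.0 to 70.7). In WT this sub-cluster held 38.3% of all Acta1 UMIs, in 5.23% of the nuclei, with Acta1 at 201 CPM against 21.4 CPM in the other WT nuclei. In BMD, Acta1 was at 292.5 CPM inside and 210.2 CPM outside it, and in DMD at 304.0 and 229.9 CPM. Outside the sub-cluster the Myh7 share was 38.3% for WT, 59.0% for BMD and 46.5% for DMD, and the share of nuclei without Myh6 was 19.1%, 33.4% and 21.2%. The log2 change of the Myh7 to Myh6 ratio in BMD was then 1.21 in place of 1.46. Of the BMD nuclei over 90% Myh7, 39.3% lay in this sub-cluster.

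In BMD and DMD, Acta1 was higher in the Gdf15 sub-cluster than in the 5 others, whereas in WT it was higher in the Hs3st2 sub-cluster. In the Gdf15 sub-cluster Acta1 was at 141 (WT), 653 (BMD) and 722 CPM (DMD), and Actc1 at 2834, 5196 and 3499 CPM. Its 45 BMD nuclei were 2.95% of the class and held 44.2% of BMD's Myl7 UMIs and 41.0% of its Myl4 UMIs. Its 22 DMD nuclei held 41.7% of Myl7 and 23.6% of Myl4 UMIs. These were 10 Myl7 UMIs in 4 nuclei and 21 Myl4 UMIs in 3 nuclei. The Hs3st2 sub-cluster, with 25.4% of BMD nuclei, held 39.7% of BMD's Myl4 and 36.5% of its Myl7 UMIs. In DMD it had 8.77% of nuclei and held 31.5% and 16.7%. The Fos sub-cluster, with 77.2% of DMD nuclei, held 44.9% of DMD's Myl4 UMIs. For Actc1, 20.9% of its BMD UMIs were in the Gdf15 nuclei. The Myh7 share of the Gdf15 sub-cluster was 78.0% in the WT library, 83.9% in that of BMD and 51.5% in that of DMD.

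**Figure D4:**
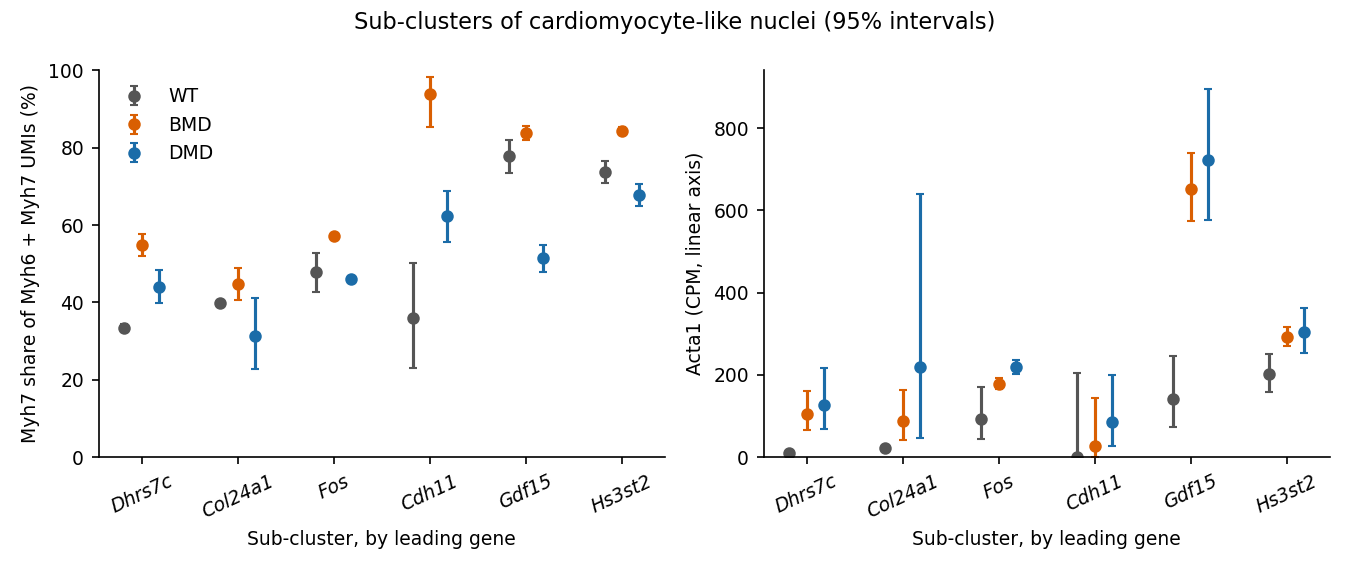
Myh7 share of Myh6 and Myh7 UMIs (left, %) and Acta1 level (right, CPM, linear axis) in 6 sub-clusters of cardiomyocyte-like nuclei, named by leading gene, with 1 point per library and bars for 95% intervals. The Hs3st2 sub-cluster lies at 67.9% Myh7 or more in all 3 libraries, and Acta1 in BMD and DMD is highest in the Gdf15 sub-cluster; sub-clusters with few nuclei of a library have wide bars.

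Myl4 and Myl7 were seen in few nuclei. Myl4 was seen in 17 of 2027 WT nuclei, 37 of 1525 BMD nuclei and 29 of 1061 DMD nuclei, and the richest nuclei held 4, 9 and 15 UMIs. Either gene was seen in 24 WT, 61 BMD and 44 DMD nuclei, both in 1, 6 and 2. In nuclei with either gene, Nppa was at 505.2, 2402 and 2334 CPM, against 164.9, 794.3 and 812.2 CPM in nuclei with neither. The ventricular light chain Myl2 was at 1041, 1334 and 1030 CPM in these nuclei, against 800.8, 840.1 and 909.2 CPM in the others. The atrial gene Sln had 0 UMIs in the WT and DMD nuclei with either light chain and 2 in those of BMD. Nuclei with either gene had 4452.5, 4200 and 3791 UMIs at the median, deeper than their classes.

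Free RNA, read from barcodes with at most 50 UMIs, also differed between libraries. It held Acta1 at 45.1 CPM in WT, against 436.9 CPM in BMD and 304.4 CPM for DMD, and Actc1 at 462, 1368 and 1095 CPM. Myh6 in free RNA was at 1509, 850 and 1017 CPM and Myh7 at 1103, 1921 and 1280 CPM. For Myh6 the DMD level in free RNA was thus well below that of WT. In cardiomyocyte-like nuclei these levels lay close, at 2532 CPM in WT and 2471 CPM in DMD. Free RNA is not separated by cell class, and cardiomyocyte-like nuclei were 20.3% of all nuclei in WT and 13.4% in DMD. The part of these shares in the free RNA levels was not tested. An estimated 2.93%, 5.38% and 4.23% of the UMIs in cardiomyocyte-like nuclei were free RNA. Its subtraction left the log2 ratio of Acta1 at 2.80 in BMD and 2.87 in DMD, and the change of the Myh7 to Myh6 ratio at 1.45 and 0.47. Acta1 outside cardiomyocyte-like nuclei was low, at 8.85, 25.9 and 31.8 CPM in endothelial-like nuclei and at 1.86, 18.8 and 14.97 CPM in fibroblast-like nuclei. Markers of other cell types in cardiomyocyte-like nuclei summed to 109, 165 and 191 CPM for 9 endothelial genes and to 199, 145 and 369 CPM for 9 fibroblast genes, and their part in these results was not tested. Most of the endothelial sum was Kdr, at 86.3, 135.6 and 128.9 CPM.

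Other genes of the contractile apparatus were followed as lists by name. Over all tested genes, 3.44% were at least 2-fold higher in BMD and 4.84% in DMD, and these shares stand beside the counts of each list. Of 3 tested myosin heavy chains of smooth and non-muscle cells (Myh10, Myh11 and Myh14), none was past 2-fold in BMD or DMD, and Myh14 was the most abundant in WT at 102 CPM. The developmental skeletal chains Myh3 and Myh8 had at most 4 UMIs in any library. Among 7 light chains and their kinases, 1 was at least 2-fold higher in each comparison: Myl12a, a non-muscle regulatory chain, in BMD with a log2 ratio of 1.20, and Mylk, the smooth muscle kinase, in DMD with 1.20. Myl3, the ventricular essential chain, had log2 ratios of 0.73 and 0.71. The most abundant of this list in WT was the cardiac kinase Mylk3, at 1269, 946 and 1062 CPM. In BMD and DMD it was Myl3, at 688, 1140 and 1128 CPM in WT, BMD and DMD.

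Of 3 other tested actins, 2 were at least 2-fold higher in both comparisons, where 3.44% of all tested genes were in BMD and 4.84% in DMD. Actg1, cytoplasmic gamma actin, was at 8.68, 25.1 and 19.5 CPM, with log2 ratios of 1.53 (1.09 to 2.002) and 1.16 (0.64 to 1.69). Acta2, smooth muscle actin, had 1 UMI in WT against 28 in BMD and 42 for DMD, and its log2 ratios were 4.74 (2.14 to 10.1) and 6.11 (3.55 to 11.4). Actb, cytoplasmic beta actin, had log2 ratios of 0.72 and 0.76. The 6 smooth muscle markers, Acta2 among them, summed to 110, 76.2 and 93.3 CPM in the same nuclei. Most of that sum was Smtn at 90.4, 58.0 and 62.0 CPM, while Myh11 was at 18.6, 11.9 and 18.2 CPM, Lmod1 had 1, 11 and 7 UMIs, Tagln 4, 2 and 2, and Cnn1 1, 1 and 0. The part of smooth muscle RNA in the Acta2 values was not tested. Acta2 reached the minimum of 50 UMIs only through BMD and DMD, where it was high, so its direction is a description and no support for the count.

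Of 6 tested troponins and tropomyosins, Tpm2, the beta tropomyosin of fetal and slow muscle, was at least 2-fold higher in both comparisons, at 12.0, 31.9 and 38.4 CPM. Its log2 ratios were 1.41 (1.03 to 1.81) and 1.68 (1.27 to 2.10). Tnnt2, the cardiac troponin T, was at 3455, 3748 and 3741 CPM, and the tropomyosin gene Tpm1 at 3453, 4177 and 4120 CPM. The most abundant of the list was Tnnt2 in WT, by a narrow margin, and Tpm1 in BMD and DMD. Tnni1, the fetal troponin I, had 12 UMIs in WT and was below the minimum. The median log2 ratio of the list was 0.50 in BMD and 0.34 in DMD, against -0.05 and -0.03 for all genes.

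In the list of 14 other genes of the fetal programme, 4 were at least 2-fold higher in BMD and 3 in DMD, against 3.44% and 4.84% of all tested genes. None was at least 2-fold lower, against 2.57% and 3.02%, and the median log2 ratio was 0.40 and 0.27. The list was chosen with earlier results known and holds Nppa and Nppb, which the study reported as upregulated in these data. Its count is therefore a description and no support. Nppa, Nppb and the matricellular gene Ccn2 were past the fold in both. Ckb, the brain creatine kinase of fetal heart, had 1.30 in BMD and 0.76 in DMD. The fetal pacemaker channel Hcn4 had -0.96 in BMD and 0.07 in DMD. Ankrd1, a stretch-responsive sarcomere gene, was at 3930, 7082 and 7116 CPM. The calcium pump gene Atp2a2, which falls in many failing hearts, had log2 ratios of -0.13 and -0.14.

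Of 18 tested regulators of these genes, none was at least 2-fold higher and 1 was at least 2-fold lower, in DMD, where 3.02% of all tested genes were. That gene was Mef2c, a transcription factor of muscle genes, at 654, 431 and 296 CPM, with log2 ratios of -0.60 and -1.15. Gata4, a cardiac transcription factor, was at 532, 756 and 752 CPM. Myocd, the coactivator of serum response factor and the most abundant of the list, had log2 ratios of -0.16 and -0.53. Srf itself had 0.05 and 0.45. The thyroid hormone receptors Thra and Thrb, which act on the heavy chain pair, had -0.53 and -0.32 in BMD and -0.23 and -0.29 in DMD. The median of the list was -0.22 in BMD and -0.26 in DMD.

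Genes with the pattern most like each member were found by the distance between their log2 ratios of CPM plus 5 over WT, among 8940 genes with at least 100 UMIs. Nearest to Acta1 were the kinase gene Plk2 with ratios of 2.37 and 2.53, Ccn2 with 2.50 and 2.36, and Nppa with 2.36 and 2.35. Nearest to Myh6 were Nell1, Rph3al and Armc4, of which Nell1 had -0.82 and 0.01. Nearest to Myh7 were Ptar1, Tmem163 and Phb2, to Myh7b Trdn, Rab8b and Slc16a6, and to Actc1 Zfhx2, Slfn2 and Ttll7. Myl4 was followed by Kif26b, Ppp2r2b and Kcnc2, and Myl7 by Epha4, Myl12a and Flnc. Myl4 and Myl7 are so sparse that the added 5 lowers their ratios, so these neighbours do not share the ratios given above. Epha4 had 1.06 and 0.82, whereas Myl7 without the added 5 had 2.63 and 2.30. Myl7 itself was below the minimum of 100 UMIs set for the compared genes. With so many genes and 2 ratios from 3 libraries, near neighbours are to be had for most patterns.

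Across 30 points, 10 classes in each of 3 libraries, the log2 level of Myh7 ran most closely with Tnni3, at a Pearson correlation of 0.99, then Tnnt2 and Actn2. That of Myh6 ran with Acacb at 0.96, then Mylk3 and Macrod1. Myh7b was followed by Myoz2, Ppara and Trim54, and Actc1 by Myoz2, Trim55 and Pdlim3. For Acta1 the nearest were Phf24 at 0.90, Nppa at 0.85 and Kcnk3 at 0.84. For Myl4 they were Mroh7, AC130940.1 and Myadml2, and for Myl7 the nearest was AC128848.1. These points share their libraries and their free RNA, and the correlations mostly describe the contrast of cardiomyocyte-like nuclei with all other classes.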

How the data were processed

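Single-nucleus RNA was measured in 1 library each of WT, BMD and DMD rat heart. The deposited matrices hold whole-number counts of UMIs per gene and barcode, which the authors made with Cell Ranger on the rn6 build. The headers name different Cell Ranger releases for WT and for the other libraries, which cannot be told apart from genotype, and whether introns were counted is not given in the sources used here. The WT file is an aggregate of all 3 libraries, and WT was read from it, while BMD and DMD were read from their own files. The aggregate holds 76.1% of the UMIs in BMD's own file and 92.9% of those in DMD's, so its counts were reduced in depth for these, and whether those of WT were is not known. Nuclei were clustered in scanpy 1.11.5 with 2000 variable genes, 30 components, 15 neighbours and Leiden resolution 0.5, leaving out the members. Classes needed at least 3 markers, and clusters with over 50% Scrublet doublets were given no name, which was decided once the clusters were known. Counts were summed per class and library. Intervals are exact Poisson or Clopper-Pearson at 95%. No test was made, since each genotype had 1 library. The members and lists were chosen with earlier results of these data known. Named genes were the 8 members, the 3 nearest genes of each by 2 measures, and from each list the genes past 2-fold in both comparisons in one direction, the most abundant and the most changed; other list genes were named after their values were seen. Some genes that these rules select are not reported here.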

Additional observations from a re-analysis of the deposited data

How the results depend on the processing

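No paired analysis was possible because each genotype had 1 library. The results were recomputed under other filters on nuclei, clusterings, scalings and minimum counts, and no called value changed direction. Myh6 in DMD, at -0.04, lay at 0.01 with an unnamed deep cluster counted in, an alternative also chosen after seeing the data, and at 0.00 without the sub-cluster led by Hs3st2. The log2 ratio of Acta1 ranged from 2.80 to 3.30 in BMD and from 2.53 to 3.43 in DMD. Leaving out the sub-cluster led by Hs3st2, an alternative chosen after seeing the data, gave 3.30 and 3.43 for Acta1, and in BMD 1.21 for the Myh7 to Myh6 change and -0.54 for Myh6. Thinning every nucleus to 500 UMIs left 2 members past 2-fold in BMD and 2 in DMD, with Acta1 at 3.19 and the heavy chain change at 0.64 in DMD. A minimum of 200 UMIs per gene also left 2 and 2. In both cases Myl4 and Myl7 had too few UMIs to be counted, and their thinned log2 ratios of 1.58 and 2.41 in BMD and 2.52 and 3.26 in DMD were still past the fold. Over all nuclei, the DMD log2 ratios were 2.53 for Acta1, 0.97 for Actc1, 0.16 for Myh7, 0.08 for Myh7b and -0.35 for Myh6, and as a mean over nuclei the heavy chain change in DMD was 0.57. Cardiomyocyte-like nuclei were 20.3% of all nuclei in WT and 13.4% in DMD, and the part of this in the all-nuclei ratios was not tested. The causes of the other shifts were not tested. Depth limits Myl4, Myl7 and Myl9, and the spread between animals was not measured.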
